A study of Mus musculus with 4 samples.

Results

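Between the genes of the mouse genome, 1893 peaks of phosphorylated Smad3 (pSmad3) had no overlapping peak of phosphorylated Smad1/5 (pSmad1/5) in embryonic molar tooth germs. They made up 23.9% of the 7905 pSmad3 peaks that the authors deposited. The members were selected on 4 properties of a peak. It lay on chromosomes 1 to 19, its maximum signal was at most 26 (2 times the list median of 13), it shared no base with any of 10741 pSmad1/5 peaks, and its midpoint lay outside and more than 1 kb from every protein-coding or long non-coding RNA (lncRNA) gene of RefSeq on mm10. These 4 properties are given below as descriptions only. The deposited lists are of peaks common to the 2 libraries of an antibody. A missing pSmad1/5 peak thus means that the common list holds none there, and a site called in 1 library alone can be absent. Signal below the calling threshold was not examined.

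All 4 libraries were made from molar tooth germs of CD1 mice of wild-type genotype at the embryonic stage E13.5, and 2 were made with a pSmad3 antibody and 2 with a pSmad1/5 antibody. They were profiled by CUT&RUN, in which the antibody guides micrococcal nuclease to chromatin and the fragments it releases are sequenced. Each antibody has 1 deposited list that stands for both of its libraries, so there was no replicate check, no comparison below carries a test, and read depth is unknown. Germs were dissociated whole, so the lists do not separate dental epithelium from mesenchyme, and a peak list offers no expression markers with which to check the tissue. Intervals on shares of peaks are exact 95% Clopper-Pearson intervals, which cover counting error only.

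Receptors for TGF-β and activin phosphorylate Smad3, while receptors for BMPs phosphorylate Smad1 and Smad5, and both kinds of Smad then enter the nucleus with Smad4 and bind DNA beside other transcription factors. Many such sites are enhancers that lie far from the gene they act on, so a peak between genes is often assigned to its nearest gene for want of better evidence. At the bud stage the dental epithelium and the condensing mesenchyme beneath it exchange BMP, Wnt, Fgf and Hedgehog signals that set the shape of the tooth.

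Sequences are shown for some of the members that span a microRNA or a gene start, and for a microRNA beside such a member. Coordinates are those of GRCm38.p6, the assembly also called mm10, and sequences are from RefSeq. A member of 12804 bp at chr11:79713872-79726675 held the hairpin of Mir365-2 (chr11:79726400-79726511, plus strand), and the hairpin of Mir193a ended 1.84 kb before it. Another member, at chr12:112125010-112135323, held Mir203 (chr12:112130880-112130955, plus strand), a microRNA known to repress the stem cell factor p63 in skin epithelium, and Gm51289, the hairpin of miR-203b on the opposite strand. Capitals mark the seed, bases 2 to 8 from the 5′ end, and no 2 of the 6 sequences have the same seed.
mmu-miR-365-2-5p: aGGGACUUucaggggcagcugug
mmu-miR-365-3p: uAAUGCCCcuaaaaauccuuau
mmu-miR-193a-5p: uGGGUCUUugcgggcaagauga
mmu-miR-193a-3p: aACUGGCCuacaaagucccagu
mmu-miR-203-5p: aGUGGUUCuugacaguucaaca
mmu-miR-203-3p: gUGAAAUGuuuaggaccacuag

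The Mir365-2 member had a total signal of 77005, above 92.7% of the pSmad3 list, with a maximum of 13. The Mir203 member had a total of 51374, above 84.0% of the list, and the same maximum. Their nearest pSmad1/5 peaks were 45.2 kb and 10.7 kb away. Total signal is summed over the call and maximum is its highest point, both in the authors' own scaling, so a long call can have a high total and an ordinary maximum. A call can also reach past the deposited peak. Its region of maximum lay inside the peak for 1297 members, 68.5% (interval 66.4 to 70.6). For 392 members, 20.7% (18.9 to 22.6), the total was above the width times the maximum, so it cannot have come from the peak alone. Every total printed below is that of the call, and where it exceeds this bound for a member given by its own total, the call is said to be longer than the peak. Of 919 hairpins on chromosomes 1 to 19, 3 lay inside a member and 18 within 10 kb of one. Mir203 and Gm51289, among the 3, occupy the same place on opposite strands. The share to be met by position alone was not computed, so these counts are descriptions. These microRNAs were chosen after their positions were seen.

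A peak whose midpoint is more than 1 kb from a gene can still reach that gene's start. Among the members, 57 spanned the whole window from 250 bases before to 50 bases after an annotated start, covering 67 windows of 59 genes, of which 42 were protein-coding and 17 lncRNA genes. The 250 bases before the start are printed for Junb, a subunit of the AP-1 transcription factor and a known TGF-β target, for Wnt10b, a Wnt ligand of the early dental epithelium, and for Cspg4, a proteoglycan of pericytes and progenitor cells. Junb and Wnt10b belong to the gene lists below, and Cspg4 was chosen after its motifs were seen. Capitals mark every motif found out of 13 searched on both strands. In Junb these are TGTTTAC, a forkhead motif, and CAGCTG, an E-box. In Cspg4 they are CAGACAG, built on the CAGA letters that Smad3 binds, and GGCGCC, a GC-rich Smad motif. None of the 13 was in the Wnt10b window, which precedes one of its annotated starts and overlaps the end of the gene span.
Junb (chr8:84978749-84978998, minus strand): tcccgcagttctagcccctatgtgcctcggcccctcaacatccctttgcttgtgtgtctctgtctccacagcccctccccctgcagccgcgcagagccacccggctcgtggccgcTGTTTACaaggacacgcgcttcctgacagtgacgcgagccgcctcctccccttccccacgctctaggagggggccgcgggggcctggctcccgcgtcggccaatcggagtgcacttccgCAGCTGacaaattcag
Wnt10b (chr15:98778151-98778400, minus strand): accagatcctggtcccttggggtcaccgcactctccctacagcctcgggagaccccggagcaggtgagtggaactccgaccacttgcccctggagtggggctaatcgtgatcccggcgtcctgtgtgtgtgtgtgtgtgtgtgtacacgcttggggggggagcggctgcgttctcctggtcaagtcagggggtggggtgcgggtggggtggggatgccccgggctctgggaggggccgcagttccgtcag
Cspg4 (chr9:56864854-56865103, plus strand): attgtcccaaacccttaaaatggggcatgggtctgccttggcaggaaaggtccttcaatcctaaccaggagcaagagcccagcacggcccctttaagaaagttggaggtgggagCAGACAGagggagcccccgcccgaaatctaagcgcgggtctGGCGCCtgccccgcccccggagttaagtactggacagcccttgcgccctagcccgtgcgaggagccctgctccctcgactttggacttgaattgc

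The share of member-spanned windows with each of the following motifs was within counting error of that in all windows of the same length. CAGACAG was in 6 of the 67 windows, 8.96% (interval 3.36 to 18.5), against 7.81% of all 31395 RefSeq windows of 300 bases. GGCGCC was in 6 windows as well, 8.96%, against 12.1% of all. The palindrome GTCTAGAC was in 0 of 67, which allows a share of up to 5.36%, against 0.223% of all. E-box letters, CAGCTG, were in 16 windows, 23.9% (interval 14.3 to 35.9), against 16.3% of all. Windows of 1 gene can overlap, so they are not independent, and a match is a description of the letters, not a binding site. The median GC content was 54.7% in the windows inside members and 53% in all windows.

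In width and signal the members were close to the middle of the pSmad3 list. Their median width was 4548 bp (interquartile range 2784 to 5663), against 4443 bp for 3467 unshared pSmad3 peaks inside genes that passed the same limit on the maximum. Median total signal was 26677 (23197 to 33940) in the members, against 27344 inside genes. Another class, 482 pSmad3 peaks between genes that did overlap a pSmad1/5 peak, had a median width of 5814 bp and a median total of 34762.5. The maximum was at or below the list median in 62.1% of members, in 62.3% of the peaks inside genes and in 36.3% of the shared peaks between genes. The limit on the maximum took part in choosing all of these classes, and the overlap in separating them.

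At the limit on the maximum, 7 members had a maximum of 25 and 4 had 26, and 16 otherwise eligible peaks had a maximum above it, between 27 and 108. The member nearest to a gene had its midpoint 1006.5 bp away, and the farthest peak left out was at 998.5 bp, one of 203 left out for this reason. The smallest gap between a member and a pSmad1/5 peak was 5 bp, and 66 members had such a peak within 1 kb. Widths under 1 kb were found in 152 members (8.03%) and widths over 10 kb in 40 (2.11%). Of the members, 83 (4.38%) were pieces of a call that the list splits, so the 1893 peaks came from 1870 calls. The pSmad1/5 list is split more often, with 10741 peaks from 8380 calls. Among pSmad1/5-only peaks between genes, 28.0% were such pieces, so counts of pSmad1/5 peaks below can exceed those of calls.

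**Figure D1:**
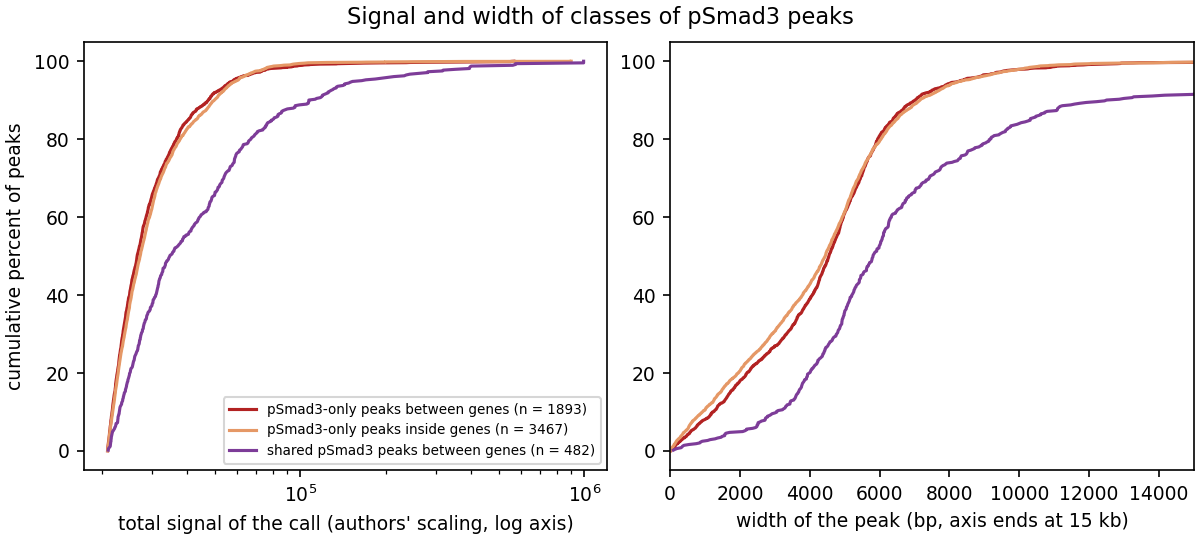
Cumulative percent of peaks against total signal of the call (left, log axis, the authors' scaling) and against peak width in bp (right, axis cropped on the right) for pSmad3-only peaks between genes, pSmad3-only peaks inside genes and shared pSmad3 peaks between genes. The first 2 curves lie close together, with median totals of 26677 and 27344, and the shared peaks lie to the right, with a median of 34762.5.

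Members lay a median of 27.5 kb from the nearest protein-coding gene, measured from the midpoint (interquartile range 8.54 to 75.2 kb). Within 5 kb there were 313 members (16.5%), from 10 to 50 kb there were 722 (38.1%), and beyond 500 kb there were 34 (1.80%). An lncRNA gene was nearer than any protein-coding gene for 847 members, 44.7% (interval 42.5 to 47.0). The corresponding share was 32.4% (28.2 to 36.7) for the shared pSmad3 peaks between genes and 45.5% (43.6 to 47.4) for 2679 pSmad1/5 peaks between genes that overlapped no pSmad3 peak. Of the members 172, or 9.09%, still touched a protein-coding or lncRNA gene with one end.

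Members were denser in short gaps between protein-coding genes than in long ones. Density was counted per Mb of sequence that lay outside and more than 1 kb from genes, without allowance for assembly gaps. It was 3.82 members per Mb in gaps up to 20 kb, 2.59 from 20 to 100 kb, 2.32 from 100 to 500 kb, 1.25 from 500 to 1000 kb and 0.296 in gaps over 1000 kb. Gaps over 1000 kb held 33.8% of this sequence and 6.38% of the members in gaps. The pSmad1/5-only peaks between genes followed the same order, 5.51, 3.78, 3.01, 1.80 and 0.555 per Mb, and so did the shared pSmad3 peaks, 0.971, 0.750, 0.570, 0.304 and 0.0419 per Mb. Whether mappability or GC content moves with gap length was not tested.

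**Figure D2:**
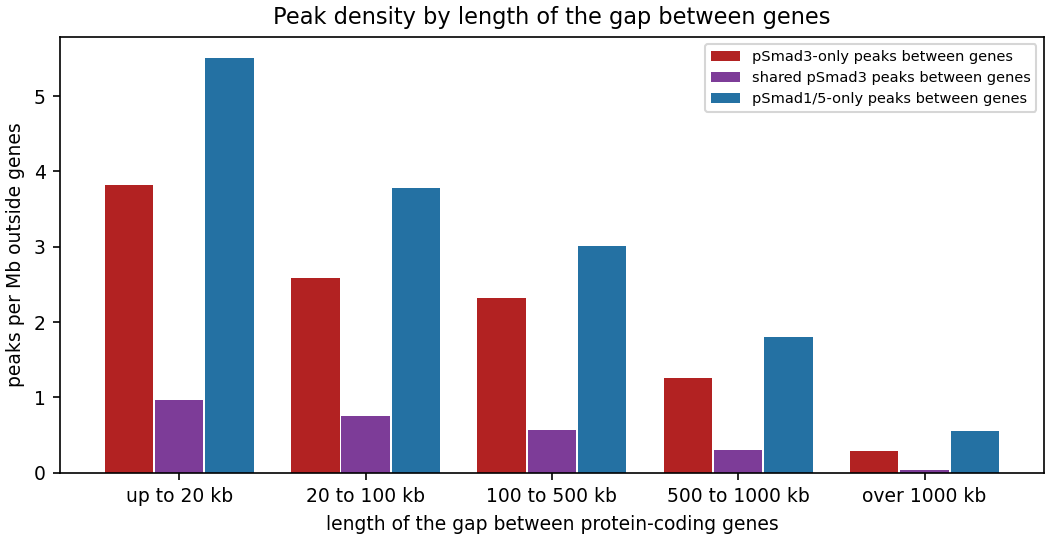
Peaks per Mb of sequence outside genes (bars from 0) by length of the gap between protein-coding genes, for pSmad3-only, shared pSmad3 and pSmad1/5-only peaks between genes. All 3 classes were densest in gaps up to 20 kb, where the pSmad3-only peaks reached 3.82 per Mb, and sparsest in gaps over 1000 kb, where they reached 0.296.

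Members lay about equally often on either side of genes. Where RefSeq promoter records gave the strand of the nearest protein-coding gene, 776 of 1536 members lay on its 5′ side, 50.5% (interval 48.0 to 53.1), and the strand was unknown for 357. The share was 48.8% at 1 to 5 kb and 45.2% beyond 100 kb. Gaps between divergent genes held 1.63 members per Mb, gaps between genes in tandem 1.53 and gaps between convergent genes 1.67. Across chromosomes the density ranged between 0.951 per Mb on chromosome 3 and 2.29 on chromosome 7.

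Another pSmad3 call lay within 20 kb of 673 members, 35.6% (interval 33.4 to 37.8). The share was 39.7% (38.1 to 41.4) for the pSmad3-only peaks inside genes and 55.8% (51.2 to 60.3) for the shared pSmad3 peaks between genes. A pSmad1/5 peak lay within 20 kb of 637 members, 33.7% (31.5 to 35.8), against 42.6% (41.0 to 44.3) of the pSmad3-only peaks inside genes and 45.8% (41.8 to 49.8) of 625 at gene ends, within 1 kb of an end. The median distance from a member was 41.7 kb to the next pSmad3 call and 41.4 kb to the nearest pSmad1/5 peak. Gene density differs between these classes, and its part in the shares was not tested.

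**Figure D3:**
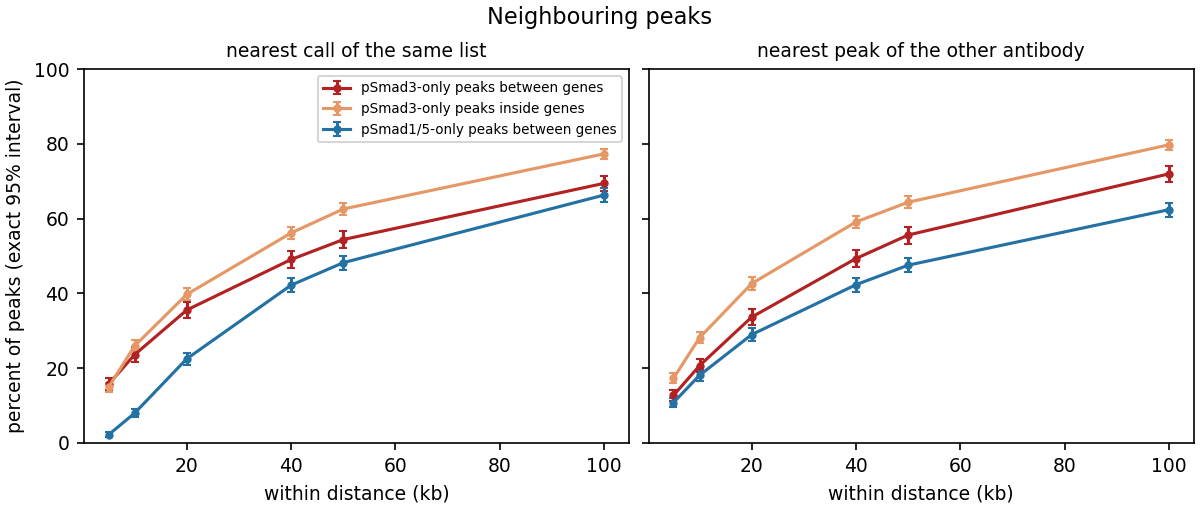
Percent of peaks (with exact 95% intervals) that have another call of the same list (left) or a peak of the other antibody (right) within 5 to 100 kb, for pSmad3-only peaks between genes, pSmad3-only peaks inside genes and pSmad1/5-only peaks between genes. At 20 kb the pSmad3-only peaks between genes stand at 35.6% and 33.7%, below those inside genes at 39.7% and 42.6%.

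Genes are counted below as having a member when they are the protein-coding gene nearest to one and no more than 50 kb away. Members farther than 50 kb from a listed gene do not enter these counts and are printed for some genes only. Over all 20556 protein-coding genes of chromosomes 1 to 19, 1078 had a member, 5.24%. The share depended on the space around a gene. It was 0.949% of genes whose gaps on both sides sum to at most 20 kb, 5.18% from 20 to 100 kb, 12.9% from 100 to 500 kb and 8.07% above. Each gene list is therefore set beside the share over all protein-coding genes weighted to the flank lengths of the list, and listed genes were not tested as sets. The rank of a total in the pSmad3 list is printed for some members only. In that list the lowest total was 20982 and the lower quartile was 23818, so totals under 23818 are among its weakest.

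Components of the BMP and TGF-β pathways, a list of ligands, receptors, Smads, Smurfs and secreted antagonists, had members at 4 of 44 genes, 9.09%, beside 7.17% for their flank lengths. The ligand Tgfb3, which is needed for palate fusion, had a member at chr12:86054003-86057235 that overlapped an end of the gene while its midpoint lay 1.12 kb away. Its total was 35853, above 69.8% of the list, and a pSmad1/5 peak lay 174 bp away. Bmp7, a BMP ligand made in the dental epithelium, had 3 members at 29.6, 43.6 and 79.1 kb, with totals of 25071, 27727 and 23781. Only the first 2 of these are within 50 kb.

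Eng, an accessory receptor for TGF-β and BMP ligands that marks endothelium, had a member 2.11 kb upstream at chr2:32642449-32646525. Its total of 21506 was above just 5.34% of the list. Gdf10, a TGF-β family ligand, had one 41.7 kb upstream with a total of 21453, above 4.78% of the list. The ligands Bmp2, Bmp3 and Bmp4 had none.

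Known TGF-β targets had members at 3 of 24 genes, 12.5%, beside 7.44% for their flank lengths. Junb had the member that spans its start, at chr8:84978160-84983247, with a total of 24291, above 28.1% of the list, and the nearest pSmad1/5 peak 36.8 kb away. Ltbp2, a matrix protein of the latent TGF-β binding family, had a pair of members 7.29 and 13.4 kb upstream, with totals of 43210 and 26599 and maxima of 17 and 18. Ccn1, a matricellular protein, had one 8.51 kb downstream with a total of 32058 and its nearest pSmad1/5 peak 177 kb away. Smad7 and Skil had no member.

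Known BMP targets had members at 3 of 20 genes, 15%, beside 9.17% for their flank lengths. Id1, which blocks basic helix-loop-helix factors and is a direct target of Smad1/5, had a member at chr2:152736834-152743752 that overlapped the end of the gene while its midpoint lay 2.88 kb away. Its total was 29240, and the nearest pSmad1/5 peak was 24.5 kb away. Atoh8, a basic helix-loop-helix factor, had one 30.9 kb upstream with a total of 50388, above 83.4% of the list. Id2 had one 39.7 kb upstream with a total of 23350. Id3, Id4 and Smad6 had none. With 3 genes in each target list, the counts for the branches are the same and too small to tell apart.

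Regulators of dental mesenchyme had members at 6 of 42 genes, 14.3%, beside 9.24% for their flank lengths. Foxd1, a forkhead factor, had a member 14.0 kb upstream with a total of 32053 from a call longer than the peak of 1874 bp, and its nearest pSmad1/5 peak was 743 kb away. That member thus lay in a wide stretch without a deposited pSmad1/5 peak.

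Sdc1, the proteoglycan syndecan-1 of condensing dental mesenchyme, had a member 17.1 kb downstream with a total of 29676. Foxf1, a forkhead factor, had one 33.7 kb away with a total of 42957. Alx4, a homeobox factor of the face, had one 38.6 kb away with a total of 24668 and another 73.2 kb away with a total of 49590. Msx1 and Pax9, which the bud needs to advance, and Msx2, a related homeobox gene, had no member.

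Dental epithelium genes had the highest share among the lists, 6 of 29 genes or 20.7% (interval 7.99 to 39.7), beside 7.35% for their flank lengths. Wnt10b had the member that spans its start, at chr15:98777486-98781916, with a total of 21307, above 3.33% of the list. Sox21, a Sox factor of epithelia, had one that overlapped the end of the gene, with its midpoint 2.36 kb downstream and a total of 25884. Tbx1, a T-box factor of the early dental epithelium, had one 12.6 kb upstream with a total of 33346.

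Grhl3, a grainyhead factor of surface epithelium, had a member 13.9 kb upstream with a total of 23674. Shh, the Hedgehog ligand of the signalling centre in the tooth germ, had one 15.7 kb away at chr5:28438345-28443910, with a total of 22748 and a pSmad1/5 peak 16.2 kb from it. The keratin genes Krt5, Krt14 and Krt8 had none.

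Hedgehog pathway genes had members at 4 of 21, 19.05%, beside 5.73% for their flank lengths. Besides Shh, Disp1, which releases the ligand, had one 32.8 kb downstream with a total of 22047. Gli2, a transcription factor of the pathway that is also on the mesenchyme list, had 4 members, at 45.3 and 65.8 kb downstream and at 75.9 and 81.3 kb upstream. Only the member at 45.3 kb is within 50 kb. The upstream ones are pieces of 1 call with a total of 46803, above 80.7% of the list. Gas1, a co-receptor, had one 49.0 kb upstream with a total of 29703.

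Wnt pathway genes had members at 7 of 52, 13.46%, beside 8.17% for their flank lengths. Tcf7l2, a nuclear effector of the pathway, had one that overlapped the end of the gene, with its midpoint 1.67 kb downstream and a total of 22278. It had others 25.4 kb upstream with 37758 and 80.4 kb downstream with 26751, the last from a call longer than the peak of 1324 bp. Ror2, a receptor for Wnt5a, had one of 1084 bp with its midpoint 2.25 kb downstream and a pSmad1/5 peak 915 bp away. Fzd10, a Frizzled receptor, had a pair 4.50 and 15.2 kb downstream 85.9 and 97.1 kb from the nearest pSmad1/5 peak. Their totals of 45045 and 23802 are those of calls longer than the peaks, which were 1278 and 551 bp wide. Lgr6, a receptor for R-spondins, had one 6.76 kb upstream with a total of 26151.

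Fgf pathway genes had members at 4 of 29, 13.8%, beside 6.85% for their flank lengths. The ligand Fgf17 had one that overlapped an end of the gene, with its midpoint 1.09 kb away and a total of 22450. The ligand Fgf18 had one 6.03 kb downstream with a total of 33752. Fgf3, a ligand of dental signalling centres, had one 14.7 kb upstream whose total of 20992 was above 0.0759% of the list. Etv4, a factor induced by Fgf signalling, had one of 415 bp 24.3 kb away, with a total of 24136 from a call longer than the peak.

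Notch pathway genes had members at 3 of 25, 12%, beside 6.28% for their flank lengths. All 3 are targets of the pathway, but the related genes Hes6, Hey1, Hey2 and Heyl on the same list had no member. Hes5 had one 13.3 kb upstream with a total of 21922 and a maximum of 21, Nrarp had one 16.1 kb upstream with a total of 34405 and a pSmad1/5 peak 201 bp away, and Hes1 had one 25.7 kb away with a total of 29118 from a call longer than the peak of 2284 bp. Notch1, Notch2 and Notch3 had none. Of 18 Sox genes, 2 had a member: Sox21, and Sox8, with one 5.62 kb downstream whose total of 67979 was above 91.0% of the list.

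Extracellular matrix genes had members at 6 of 36, 16.7%, beside 8.94% for their flank lengths. Matn1, a cartilage matrilin, had one 7.63 kb downstream with a total of 41022. Fbn1, the microfibril protein that carries latent TGF-β complexes, had one 9.90 kb downstream with a total of 22549. Col5a1, a fibrillar collagen chain, had one 13.8 kb downstream with a total of 23574. Nid1, a basement membrane protein, had one 15.2 kb downstream with a total of 36747, and Sparc, a collagen-binding protein, had one 27.5 kb downstream with a total of 22074. All 5 of these lay on the 3′ side of their gene, as did the member of Col4a1, 28.7 kb downstream. Gene side was looked at after the lists were seen, and this was not tested. Over all members with a known strand, 50.5% lay on the 5′ side. Col1a1, Col1a2 and Col2a1 had none.

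The lists of other cells in a dissected germ and of housekeeping genes were short, and each interval includes the share for the flank lengths. Of 15 endothelial markers Eng had one, 6.67% beside 7.01%, and of 15 macrophage markers C1qa, a complement subunit, had one 10.2 kb away with a total of 63043, 6.67% beside 4.25%. None of 13 neuron and glia markers had one (upper limit 24.7%), beside 8.76%. None of 23 housekeeping genes had one (upper limit 14.8%), beside 3.65%, and their median flank was 17.1 kb against 35.5 kb for all protein-coding genes. Each of the 11 lists of pathways, targets, matrix and tooth genes stood above the share for its flank lengths, but for 10 of these 11 the interval of the share, which covers counting error alone, includes that value. Counts were between 2 and 7 genes, and the lists share genes. The lists were chosen with earlier results of these data known. The same shares were not counted for other classes of peaks, so they are descriptions.

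**Figure D4:**
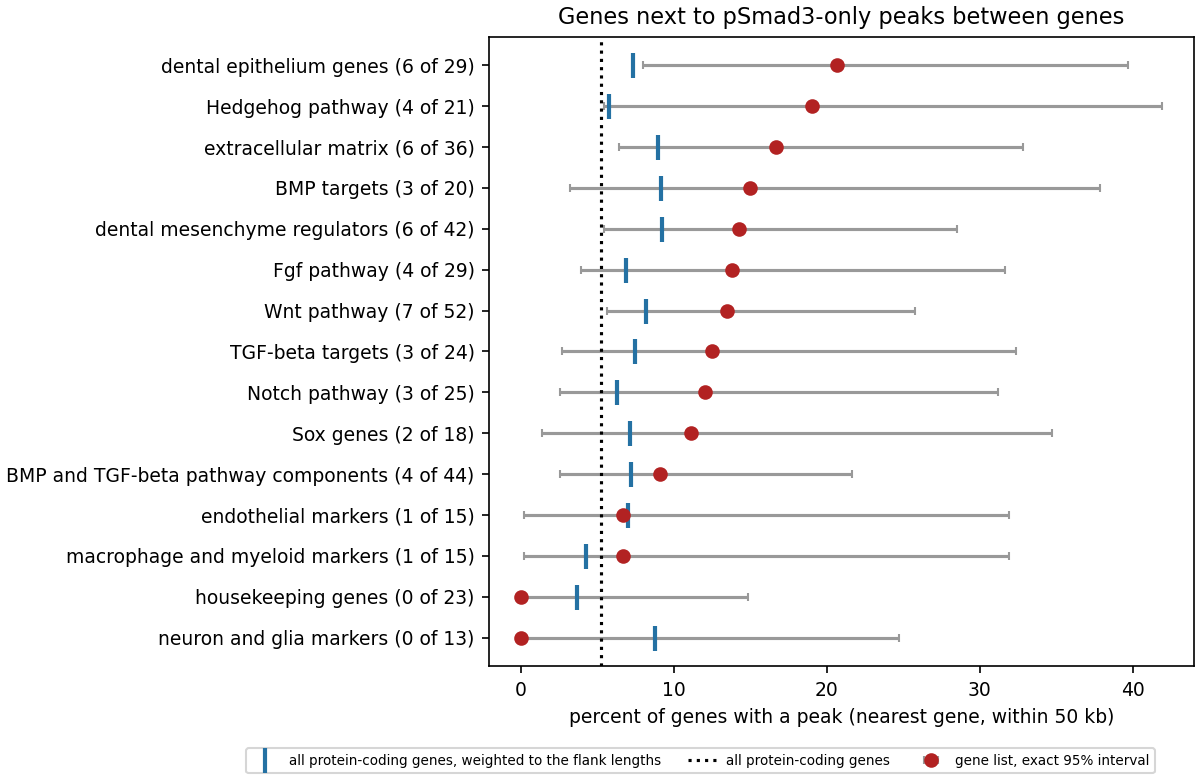
Percent of the genes in each list that are nearest to a pSmad3-only peak between genes within 50 kb (points, exact 95% intervals), beside all protein-coding genes weighted to the flank lengths of the list (blue ticks) and all protein-coding genes (dotted line, 5.24%). Dental epithelium genes stand at 20.7% and BMP and TGF-β pathway components at 9.09%, and the intervals are wide because few genes were counted.

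Most gaps with members held 1. Of 1353 such gaps, 1049 held 1, 206 held 2, 54 held 3, 22 held 4 and 22 held 5 or more. Mn1, a transcriptional coactivator needed for palate growth, was nearest to 8 members spread from 25.9 to 381 kb from the gene, with totals between 21021 and 28942. The gap between Mn1 and Cryba4 held 12 members from 12 calls and 17 pSmad1/5 peaks from 13 calls in 789 kb. None of the 8 had a total above more than 52.1% of the list, and the gap held peaks of both antibodies.

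Nphp4, a protein of the ciliary transition zone, was nearest to 9 members, all downstream, from 8.92 to 342 kb away, with totals of their calls between 21230 and 55419. Its gap to Ajap1 held 11 members from 11 calls and 12 pSmad1/5 peaks from 9 calls in 810.0 kb. Ptpru, a receptor tyrosine phosphatase, was nearest to 6 members from 12.8 to 369 kb downstream, with totals between 21755 and 48323. Its gap to Matn1 held 10 members from 10 calls and 19 pSmad1/5 peaks from 14 calls.

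In the gap upstream of Dlk1, an imprinted transmembrane protein related to Notch ligands, the balance was different. Its gap to Begain held 7 members from 6 calls and 2 pSmad1/5 peaks in 384 kb, and no other pSmad3 peak. The members lay from 13.4 to 130.4 kb upstream of Dlk1, with totals between 21293 and 29301 and maxima between 11 and 14. Within 400 kb of Dlk1 on both sides there were 11 pSmad1/5 peaks, including a peak inside the gene, and 6 other pSmad3 peaks. The gap between Enc1 and Arhgef28 held 5 members and 1 pSmad1/5 peak, and that between Smim10l1 and 5530400C23Rik held 5 members and 0. The gaps were ranked by their number of members, so these counts are descriptions.

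Bcl11b, a zinc finger factor of T cells and of enamel-forming epithelium, was nearest to 6 members, with 5 downstream between 19.6 and 348 kb and 1 upstream at 33.2 kb. Their totals were between 21870 and 48922. Tle3, a Groucho corepressor, was nearest to 6 members on both sides, between 22.8 and 218 kb away.

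Tbx3 and Vegfa were chosen after their values were seen. Tbx3, a T-box factor, was nearest to 4 members between 172 and 293 kb away, with totals between 22476 and 24549. Its gap to Med13l held 7 members from 7 calls and 11 pSmad1/5 peaks from 7 calls. Vegfa, the vascular growth factor, was nearest to 4 members between 7.14 and 87.9 kb away, with totals of 65611, 23673, 53016 and 23249. The first and last of these are totals of calls longer than the peaks, which were 1816 and 741 bp wide. A pSmad1/5 peak lay between 3.35 and 26.8 kb from each of the Vegfa members.

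**Figure D5:**
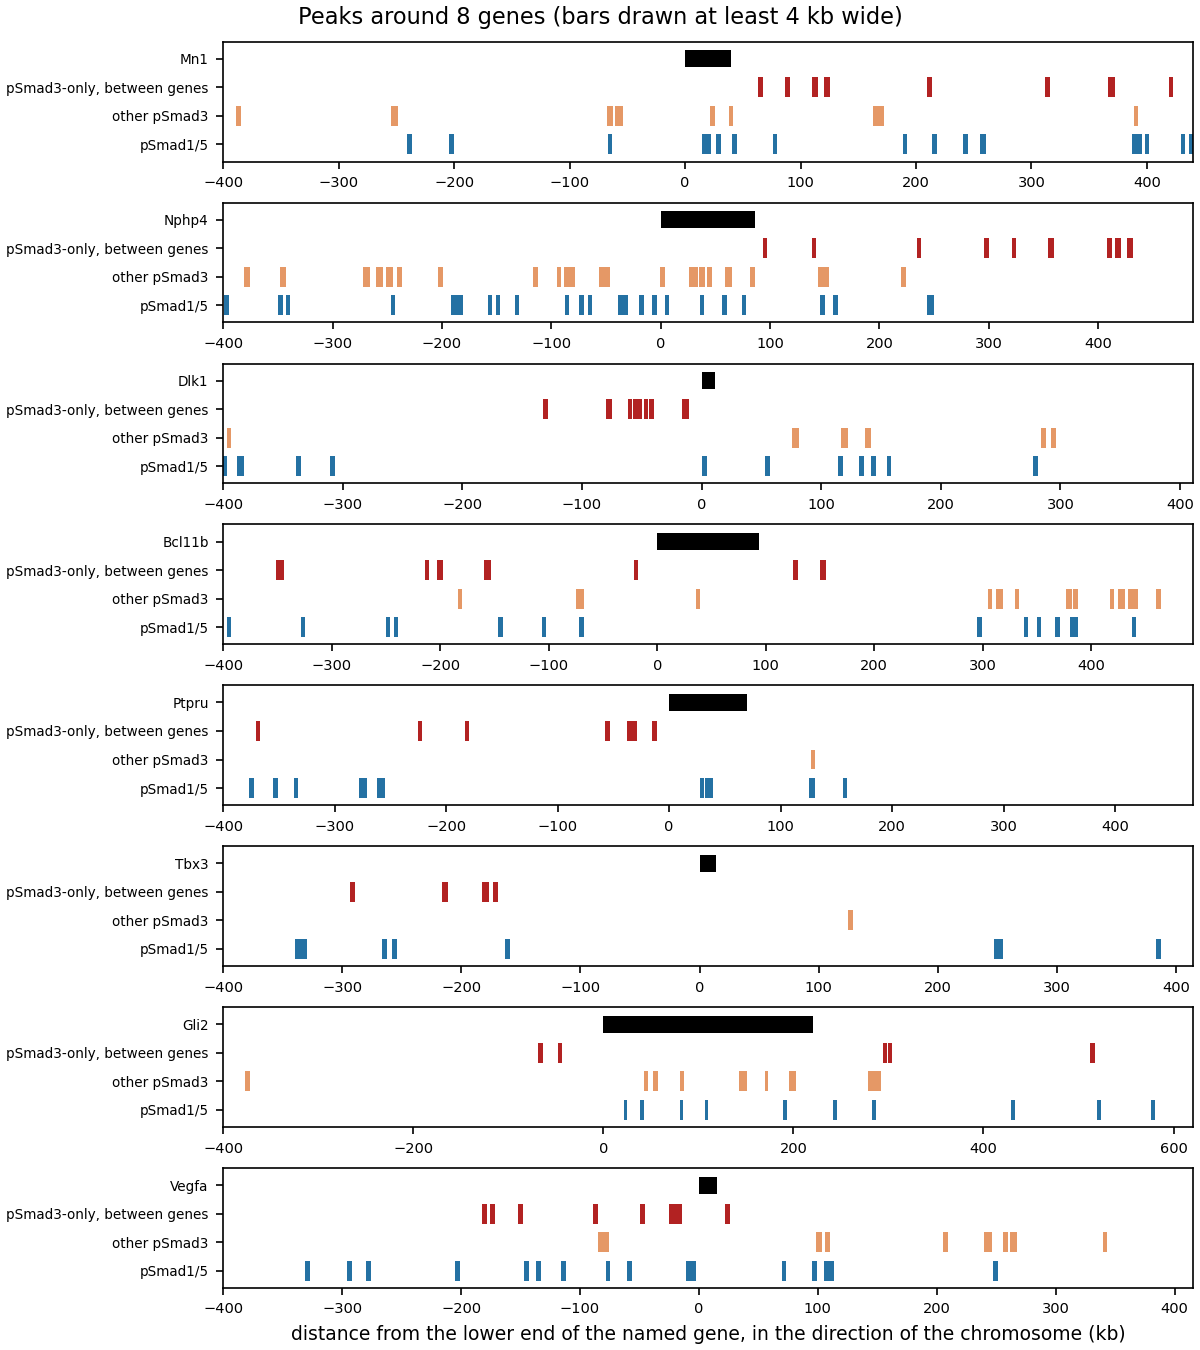
Peaks within 400 kb of 8 genes, by distance in kb from the lower end of the gene along the chromosome: the gene (black), pSmad3-only peaks between genes (red), other pSmad3 peaks (orange) and pSmad1/5 peaks (blue), each drawn at least 4 kb wide. Around Ptpru 6 members stand with 1 other pSmad3 peak and 13 pSmad1/5 peaks, and around Nphp4 9 members stand with 21 other pSmad3 peaks and 25 pSmad1/5 peaks.

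The densest groups of members lay in clusters of duplicated genes. The gap between Obox7 and Obox2, homeobox genes of the oocyte, held 26 members from 25 calls in 723 kb. It also held 30 pSmad1/5 peaks, which came from 15 calls. A stretch of chromosome 2 beginning at 177 Mb held 23 members within 1 Mb. In the 3 windows of 1 Mb with the most members, which cover both places, 53 members had a median total of 41224 and a median maximum of 17, against a median total of 26559.5 in all other members. The highest total of any member, 564712, belonged to a peak of 66162 bp at chr2:177463874-177530035 nearest to the zinc finger gene Zfp970, with a maximum of 23. The next, 550693, was a call in 2 pieces near Gm14410 in the same stretch, with a maximum of 25. Reads from near-identical copies can be placed on any of them, and their treatment by the authors is not given in the sources used.

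Outside that stretch, high totals were found near Gm40862 (394086), Zfp987 (350990), the axonemal dynein gene Dnah8 (278182), the complement gene C1s1 (235881) and BC048507 (168038). Their maxima were 19, 24, 21, 17 and 26. The members near Gm40862, Dnah8 and C1s1 were 8639, 1210 and 7074 bp wide, too narrow to reach these totals at their maxima, so the values are those of longer calls.

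At the other extreme stood members in long gene-poor stretches. The farthest lay 1558 kb from Cdh20, a cadherin gene, with a total of 21564 and a maximum of 9, and 1524 kb from the next pSmad3 call. Others lay 1520 kb from the protocadherin gene Pcdh10 with a total of 24849, 1454 kb from Mrpl39 with 31488, 1342 kb from the glutamate receptor gene Grik2 with 35165 and 1297 kb from Nudt12 with 24619. For all 5 the nearest pSmad1/5 peak was at least 684 kb away. Their maxima were between 9 and 17, beside an interquartile range of 11 to 15 over all members. The rule of choice limits the maximum, so this is a description.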

How the data were processed

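Per the labels, molar tooth germs of wild-type CD1 mice were profiled by CUT&RUN in 4 libraries, 2 per antibody. Bowtie2, SAMtools, bedtools, SEACR, deepTools and mm10 are named per the submitters' processing notes, and how they were set, any control library and the joining of libraries are not given in the sources used. The 2 peak lists deposited by the authors hold a position, total signal, maximum signal and region of the maximum for each peak, in their own scaling. The signal was used only within a list. Peaks with the same total, maximum and region were taken as pieces of 1 call.

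Genes came from the RefSeq table of GRCm38.p6, without 388 genes listed in the first 3 Mb of a chromosome, and strands from its promoter table. No genome sequence was used here. Overlap was 1 bp or more. Neighbouring calls were counted within 20 kb between peak ends, and genes within 50 kb of a peak midpoint. Named genes were the nearest genes of the 10 highest totals and of the 5 farthest members, the 10 genes with the most members, genes beside the densest windows of 1 Mb, and from each list up to 5 genes with a member and 3 without. Some genes that the rule takes are not named here. Members, lists and motifs were chosen with earlier results of these data known. Gap length, gene side and promoter windows were added after the lists were seen. Scripts used Python 3.11.15, numpy 2.4.6, pandas 2.3.3, scipy 1.17.1 and matplotlib 3.10.9 and were checked on made-up peaks and genes with known answers.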

Additional observations from a re-analysis of the deposited data

How the results depend on the processing

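The alternatives changed the rule of choice or the distance counted, and "moved" below means a value outside the 95% interval of the main value or a count beyond 1.5 times it. With the maximum at most the list median, 1175 members remained, with another pSmad3 call within 20 kb for 31.1%, a pSmad1/5 peak within 20 kb for 30.1% and 709 nearest genes within 50 kb. With total signal at least the list median, 774 remained, at a median of 25.2 kb from the nearest protein-coding gene, with 40.6% and 38.1% for these neighbours and 483 genes. Both alternatives set signal limits, so fewer peaks pass. The main median of 27.5 kb (25.6 to 30.2) became 38.0 kb for midpoints over 5 kb from genes and 32.5 kb for whole peaks over 1 kb from them, as near peaks drop out. The share with a pSmad1/5 peak within 20 kb became 31.3% without members that have one within 1 kb, and 41.2% when an overlap had to cover 0.5 of the peak. With 10 kb in place of 20 kb the neighbour shares were 23.6% for pSmad3 and 20.7% for pSmad1/5, and with 40 kb they were 49.1% and 49.3%. The remaining settings did not count as moved. They were 10 of 13 for the median distance and 11 of 13 for the number of members. For the neighbours they were 11 of 15 and 9 of 15, and for the genes 13 of 15. Counts within 1.5 times still shifted, from 1893 members to between 1440 and 2393, and from 1078 genes to between 739 and 1298. Among the settings not moved, leaving out the 3 densest windows, chosen after seeing the data, gave 1840 members, 34.0%, 33.2% and 1069 genes. No paired analysis was possible because each antibody has 1 list and its columns carry no replicate. Motif windows planned on genome sequence were not run.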

Other observations

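Counting those that hold a microRNA, 134 members (7.08%, exact interval 5.96 to 8.33) touched an annotated gene that is neither protein-coding nor lncRNA and so did not enter the choice of members. Among the genes touched were 86 pseudogenes, 12 transcribed pseudogenes, 8 snoRNA genes and 2 tRNA genes. The wide antigen receptor loci given below are counted as well. The share in other classes of peaks was not computed, so the count is a description. One member, at chr8:123548346-123554013, covered 3 genes of 5S ribosomal RNA, with a total of 41457 and a maximum of 19. These genes exist in many copies.

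The antigen receptor loci are annotated as wide segments of another kind and also held members. The immunoglobulin heavy chain locus Igh had 7 members among 12 pSmad3 peaks and 17 pSmad1/5 peaks in 2751 kb, with totals between 21413 and 37798. Tcra had 2 members and 4 pSmad1/5 peaks, Tcrb had 1 member and 0 pSmad1/5 peaks, and Igk had 1 of each.

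Some genes outside the lists had several members on both sides and were chosen after their values were seen. Esrrb, an orphan nuclear receptor, was nearest to 5 members, 2 upstream and 3 downstream within 71.9 kb, with totals of their calls between 26558 and 54391. Irf8, a transcription factor of myeloid cells, was nearest to 4, 1 upstream and 3 downstream within 59.1 kb, with totals between 29102 and 59028. Mir675, the microRNA made from the imprinted H19 RNA, lay 8.27 kb from a member of 1729 bp, whose total of 25780 is that of a longer call.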
